A study of Homo sapiens with 6 samples.

Results

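The proteins described here are SNU13, which the study calls by its older name NHP2L1, and the other core proteins of the small nucleolar ribonucleoproteins (snoRNPs), with the paired ATPases that help to assemble them. The 10 genes were chosen by name: SNU13, FBL, NOP56, NOP58, DKC1, NHP2, NOP10, GAR1, RUVBL1 and RUVBL2. The choice was made with earlier results of these data known. They are 10 of the 21743 genes that the array's probes could be matched to. They had 14 probes, of which 13 passed the filter on dim probes, and each of the 10 genes kept at least 1.

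RNA of MDA-MB-231 cells was hybridized to 6 one-colour Agilent whole genome arrays, 2 for each of 3 groups. Cells received a precursor of hsa-miR-205-5p, one of hsa-miR-214-3p or, as negative control, a scrambled one by transfection, and RNA was analysed 72 h later. The question was which transcripts change when either miRNA is raised in these cells, and no other treatment separated the groups. The data come from 1 human line, derived from a breast cancer, under transient transfection. The labels do not say whether the array replicates were separate cultures, and the study's general statement on independent experiments does not name the arrays, so p-values measure only the spread between these samples, which may be technical. All 6 arrays lay on 1 slide, and position on the slide cannot be told apart from group. Between 35.4% and 42.2% of the spots of an array were well above background, and no spot was saturated.

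The scanner files were set against markers of the line. VIM, CD44, AXL and ZEB1, listed as present, were well above background on all 6 arrays. Of 6 markers listed as low or absent, the hormone receptors ESR1 and PGR were not well above background on any array. The other 4, CDH1, EPCAM, ERBB2 and GATA3, were well above background on all 6 arrays, which goes against that part of the list. Summed over the 6 genes, signal in multiples of the array's 75th percentile was 42.0 and 40.3 in the miR-205-5p arrays. It was 16.8 and 18.0 in the miR-214-3p arrays and 22.5 and 21.6 in the control arrays. The ERBB2 probe weighs most in these sums, and levels of different probes are not comparable, so the genes are not ranked. CDH1 and EPCAM were called higher with miR-205-5p against control, by 1.96 and 2.40 on the log2 scale (adjusted p = 0.00799 and 0.00879). ERBB2 was higher there by 0.67 (adjusted p = 0.0360), short of 2-fold. Directly against miR-214-3p, CDH1, EPCAM and ERBB2 were called higher, by 2.15, 2.33 and 1.08 (adjusted p = 0.00388, 0.00501 and 0.00756). GATA3 did not pass in either comparison. Their part in the results that follow was not tested.

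Small nucleolar RNAs guide the chemical modification of ribosomal RNA in the nucleolus. Box C/D snoRNPs methylate riboses: SNU13 binds a kink-turn in the guide RNA, NOP56 and NOP58 form the scaffold and fibrillarin (FBL) is the methyltransferase. Box H/ACA snoRNPs turn uridine into pseudouridine: dyskerin (DKC1) is the enzyme, and NHP2, NOP10 and GAR1 bind with it. SNU13 also binds U4 small nuclear RNA in the spliceosome, and RUVBL1 and RUVBL2 are AAA+ ATPases that act in chaperone complexes during assembly.

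The sequences of the transfected miRNAs are shown because each comparison rests on them, with the seed (bases 2 to 8) in capitals. Both are from RefSeq on build GRCh38.p14, and their seeds differ. The hsa-miR-205-5p sequence lies at chr1:209432166-209432187 on the plus strand and hsa-miR-214-3p at chr1:172138816-172138837 on the minus strand.
hsa-miR-205-5p: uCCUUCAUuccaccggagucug
hsa-miR-214-3p: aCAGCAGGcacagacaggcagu

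The study's PCR primers for SNU13 are shown because the study measured this gene with them as well as on the arrays. Where they lie relative to the array probes was not analysed here.
SNU13 forward primer: gcgagtgcttctgaaacgtc
SNU13 reverse primer: ttggtcccaggacaacatgg

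Values below are normalized log2 signals, where 0 is the array's 75th percentile, and replicate 1 is given before replicate 2. A gene was called when limma gave an adjusted p under 0.05 and the change was at least 2-fold. A gene was counted by its kept probe of highest mean signal. The 2 comparisons against control share the control arrays, and the direct comparison shares its arrays with both. Replicates differed unequally. Over the member probes, the root mean square difference between replicates was 0.28 for miR-205-5p, 0.15 for miR-214-3p and 0.59 for control, where replicate 1 was the lower on each SNU13 and NOP56 probe. In RNA of whole cultures, fewer cells that hold a transcript and less of it in each cell cannot be told apart.

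With miR-205-5p against control, 2 of the 10 genes were called lower, NOP56 and RUVBL1, and none was called higher. Over all 11974 genes tested, 7.98% were called lower and 4.78% higher. At adjusted p under 0.05 with any fold, 4 members fell (RUVBL2 and GAR1 also) and 0 rose, while 11.3% of all genes fell and 9.81% rose. limma gave 4 members lower and 1 higher at an unadjusted p under 0.05, and the methods' t-test gave 4 and 2. Over all genes limma gave 2261 lower and 2469 higher at that p, and the t-test 1316 and 1421. The members' median log2 fold change was 0.094 and that of all genes 0.077. With 10 genes, nothing particular to the list was read from these counts. Without miR-205-5p replicate 1 only RUVBL1 was called, with 564 of all genes lower and 207 higher. Without scrambled control replicate 1 RUVBL2 was called as well, for 3, with 1400 of all genes lower and 1065 higher. Without miR-205-5p replicate 2, 0 members and 0 of all genes were called in either direction. Without either miR-214-3p replicate the 2 members were called, with 405 of all genes lower and 212 higher. Scaling each array to its median moved the median of all genes by -0.39, changed the split of calls from 956 lower and 572 higher to 1876 and 212, and gave 4 members lower.

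With miR-214-3p against control, limma called 0 members in either direction, and 0 passed at any fold. At an unadjusted p under 0.05 the count was 0 by limma and 0 by the methods' t-test, where limma gave 1609 of all genes lower and 1294 higher and the t-test 1137 and 957. With a replicate block, and with only the 4 arrays compared, 0 of all genes were called in either direction. In the main fit the shares over all genes were 2.03% called lower and 1.09% higher, and 2.09% and 1.21% at any fold. These shares rest on 5 of the 6 arrays: 0 of all genes were called in either direction without any one of miR-205-5p replicates 1 and 2, miR-214-3p replicates 1 and 2 and scrambled control replicate 1, and 0 without the filter on dim probes. The members' median was 0.069 against -0.012 for all genes. Without scrambled control replicate 2, 1 member, NOP56, was called higher, with 496 of all genes lower and 655 higher. Median scaling moved the median of all genes by -0.17 and the split of calls from 243 lower and 131 higher to 278 and 44.

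With miR-205-5p directly against miR-214-3p, 3 members were called lower, NOP56, RUVBL1 and RUVBL2, and 0 higher. The shares over all genes were 11.3% lower and 9.18% higher, and both fell without any one of the 4 precursor arrays. At any fold 4 members fell, with GAR1 added, and 0 rose, while 16% of all genes fell and 17.9% rose. At an unadjusted p under 0.05, limma gave 4 members lower and 2 higher (NHP2 and NOP10), and the methods' t-test gave 4 and 4. Over all genes limma gave 2546 lower and 3229 higher at that p, and the t-test 2594 and 3206. The members' median was -0.035 against 0.12 for all genes. Without miR-214-3p replicate 2, 1 member, RUVBL1, was called, and the calls over all genes were 185 lower and 140 higher. Without miR-214-3p replicate 1, NOP56 and RUVBL1 were called, with 335 of all genes lower and 265 higher. Median scaling moved the median of all genes by -0.22 and the split from 1352 lower and 1099 higher to 1801 and 638.

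**Figure D1:**
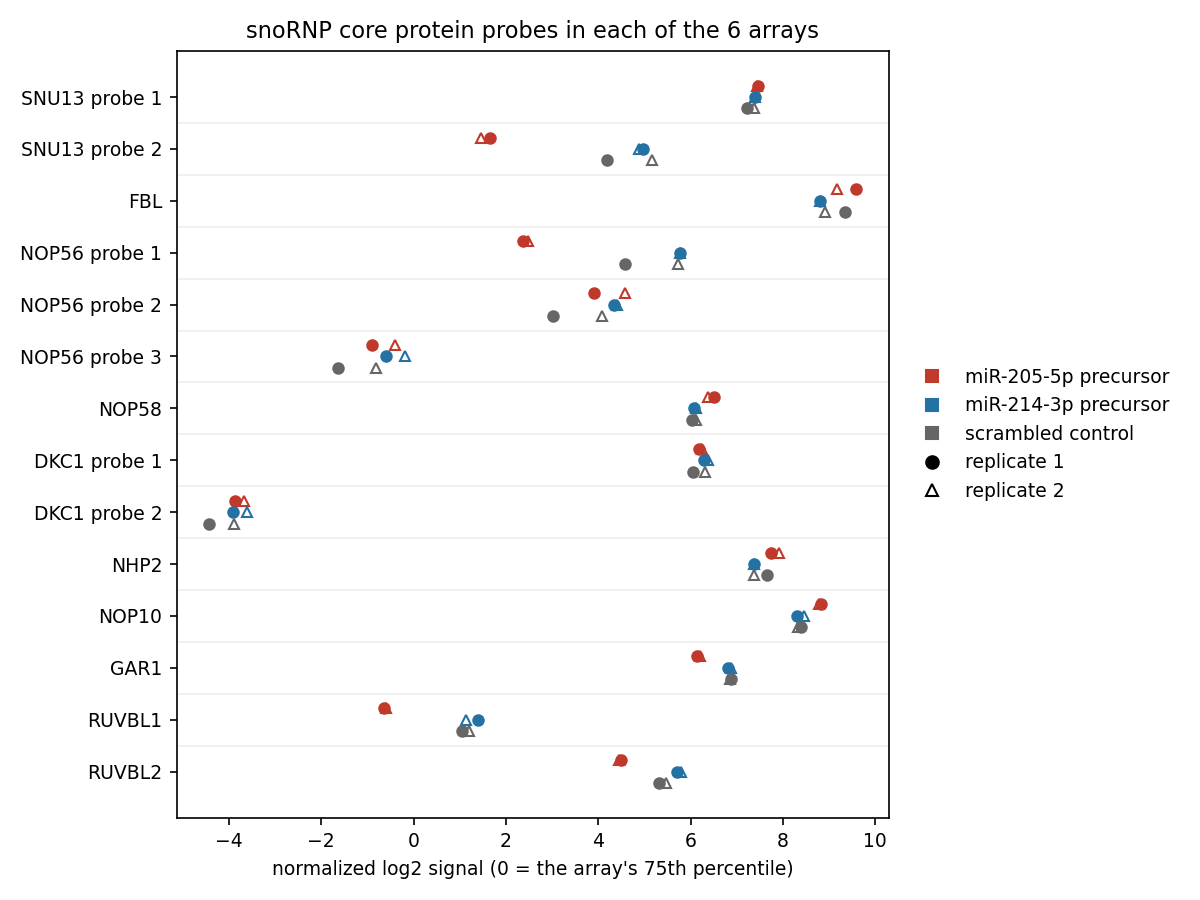
Normalized log2 signal (horizontal axis) of the 14 probes in each of the 6 arrays, coloured by group, with filled circles for replicate 1 and open triangles for replicate 2. The miR-205-5p arrays lie left of the other 4 on SNU13 probe 2, NOP56 probe 1, GAR1, RUVBL1 and RUVBL2; levels of different probes are not comparable.

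SNU13 is the protein shared by box C/D snoRNPs and the U4 particle, and its 2 probes carry the same transcript name. Probe sequences are not in the files, so whether a probe of SNU13 or NOP56 also matches a pseudogene, or which stretch of the transcript it matches, could not be checked. The first, A_23_P80362, read 7.46 and 7.44 in the miR-205-5p arrays, 7.41 and 7.40 in the miR-214-3p arrays and 7.22 and 7.38 in the control arrays. All 6 values lay close together, and both precursor groups sat just above the control group. The log2 fold change was 0.16 for miR-205-5p (SE 0.15, adjusted p = 0.494), but -0.14, -0.078, -0.23 and -0.077 with normexp, quantile scaling, median scaling and the authors' table. It was 0.11 for miR-214-3p (SE 0.15, adjusted p = 0.725), but -0.053 and -0.060 with normexp and median scaling. Neither passed, and leaving out single arrays gave 0.074 to 0.24 and 0.025 to 0.19.

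The second SNU13 probe, A_24_P382765, read 1.65 and 1.46 in the miR-205-5p arrays, 4.96 and 4.88 in the miR-214-3p arrays and 4.18 and 5.16 in the control arrays. The miR-205-5p arrays lay below all others with no overlap, the miR-214-3p values lay between those of the control, and the control arrays differed by more than either other group. This probe was 8.66-fold lower with miR-205-5p than with control (log2 fold change -3.11, SE 0.33, 95% interval -3.95 to -2.28, adjusted p = 0.00879, lower in 2 of 2 arrays). Directly against miR-214-3p the log2 fold change was -3.36 (adjusted p = 0.00415), and for miR-214-3p against control 0.25 (adjusted p = 0.702). The first call was lost without miR-205-5p replicate 2, where the log2 fold change was -3.02, and without scrambled control replicate 1 or 2 the miR-214-3p value was -0.24 or 0.73. The gene was therefore not called by the probe that the rule counts and was called by its other probe.

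Whether the probes of 1 gene moved apart was tested within arrays, a fit chosen with the data in view. The plot of centred signals below shows the same probes. The SNU13 difference (second minus first probe) was -5.81 and -5.98 with miR-205-5p, -2.45 and -2.52 with miR-214-3p and -3.03 and -2.22 with control. The miR-205-5p arrays again stood apart. The change in this difference was -3.27 against control (SE 0.32, adjusted p = 0.0175) and -3.41 against miR-214-3p (adjusted p = 0.00999). Over all 3411 such pairs, 12% differed in their change with miR-205-5p against control, 0% with miR-214-3p and 20.4% in the direct comparison. In the comparison with control the call was lost without any one of 5 arrays, with changes of -3.35 and -3.18 without miR-205-5p replicates 1 and 2, -3.27 without either miR-214-3p replicate and -2.86 without scrambled control replicate 2. In the direct comparison it was lost without miR-205-5p replicate 2 (-3.33) and without miR-214-3p replicates 1 (-3.37) and 2 (-3.45).

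Genes with the profile nearest to each SNU13 probe were found by the root mean square difference of centred log2 signal over the 6 arrays. Nearest to the first probe were AK6 (0.036), H2AC12 (0.036) and POGZ (0.043). Nearest to the second were RPL22 (0.10), SNORA70E (0.13) and ENO2 (0.14). Each gene stands for its nearest kept probe only, and any other probes of it are not given here. For RPL22, a ribosomal protein gene, this was A_24_P849801. That probe read 0.084 and -0.0005 with miR-205-5p, 3.20 and 3.21 with miR-214-3p and 2.47 and 3.45 with control. These are descriptions of 6 arrays chosen by likeness, and no test was run on them.

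NOP56, a scaffold protein of the box C/D particle, had 3 probes with the same transcript name. The first, A_23_P79927, read 2.36 and 2.49 with miR-205-5p, 5.78 and 5.76 with miR-214-3p and 4.59 and 5.73 with control. The miR-205-5p arrays were the lowest, without overlap, and control replicate 1 lay below replicate 2. The probe was 6.65-fold lower against control (log2 fold change -2.73, SE 0.38, adjusted p = 0.0124, lower in 2 of 2 arrays) and changed by -3.35 against miR-214-3p (adjusted p = 0.00511). For miR-214-3p against control the value was 0.62 (adjusted p = 0.389), but 0.045 without scrambled control replicate 1 and 1.18, called higher, without scrambled control replicate 2. The call against control was lost without miR-205-5p replicate 1 (-2.67), without replicate 2 (-2.80) and without the filter on dim probes (-2.73), and the direct one without miR-214-3p replicate 2 (-3.35).

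The other NOP56 probes were not called. The second, A_24_P101402, read 3.92 and 4.58 with miR-205-5p, 4.35 and 4.40 with miR-214-3p and 3.02 and 4.08 with control. The third, A_19_P00801634, read -0.90 and -0.39, -0.60 and -0.18, and -1.63 and -0.81 in the same order. On both probes the miR-205-5p values overlapped with each other group and control replicate 1 was the lowest array. Their log2 fold changes with miR-205-5p against control were 0.70 and 0.58 (adjusted p = 0.262 and 0.281), and 0.82 and 0.83 with miR-214-3p (adjusted p = 0.295 and 0.241). Without scrambled control replicate 1 the second probe gave 0.17 and 0.30 and the third 0.17 and 0.42. Over all single arrays left out, the highest values were 1.22 and 1.35 for the second probe and 0.99 and 1.24 for the third. Their within-array differences from the first probe changed by 3.43 and 3.31 against control (adjusted p = 0.0175 for each), opposite in sign to SNU13 because here the first probe fell. The arrays without which these calls were lost were the same as for SNU13, with changes from 3.12 to 3.70 against control and from 2.88 to 3.49 in the direct comparison over all 6 arrays left out.

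**Figure D2:**
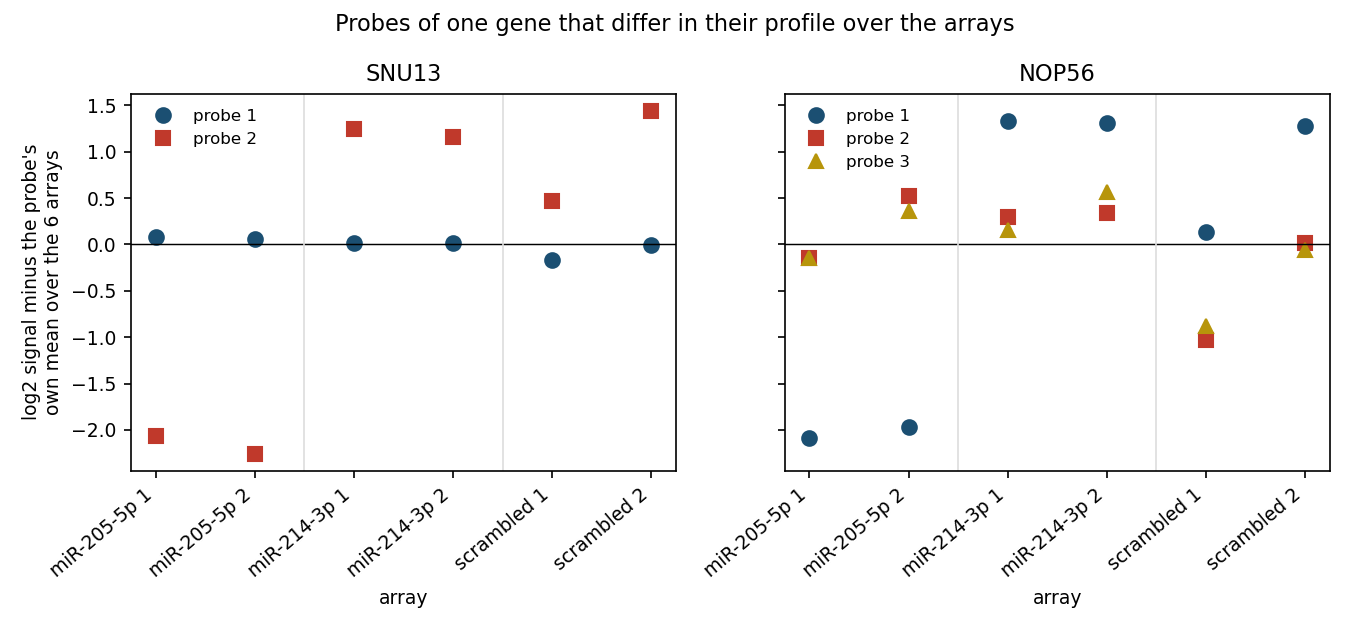
Log2 signal minus the probe's own mean over the 6 arrays (vertical axis) for each array, for the 2 SNU13 probes and the 3 NOP56 probes. SNU13 probe 2 and NOP56 probe 1 lie near -2 in the miR-205-5p arrays (from -2.25 to -1.96), where the other probes of those genes lie between -0.15 and 0.52.

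FBL, the methyltransferase, read 9.59 and 9.18 with miR-205-5p, 8.81 and 8.81 with miR-214-3p and 9.35 and 8.91 with control. The miR-205-5p and control arrays overlapped, and the miR-214-3p arrays were the lowest. The log2 fold change was 0.26 for miR-205-5p (adjusted p = 0.461), but -0.021, -0.13 and -0.013 with quantile scaling, median scaling and the authors' table. It was -0.32 for miR-214-3p (adjusted p = 0.474) and 0.57 in the direct comparison (adjusted p = 0.115), which passed with normexp (0.56). Leaving out single arrays gave 0.034 to 0.48 for miR-205-5p, -0.54 to -0.094 for miR-214-3p and 0.36 to 0.78 directly.

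NOP58, the partner of NOP56 in the scaffold, read 6.51 and 6.38 with miR-205-5p, 6.08 and 6.12 with miR-214-3p and 6.04 and 6.12 with control. The miR-205-5p arrays lay above the other 4, by 0.37 against control (SE 0.15, adjusted p = 0.149), but by -0.074 and -0.024 with normexp and median scaling. The difference did not pass.

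In the box H/ACA particle, GAR1 was the member that moved. GAR1 read 6.13 and 6.21 with miR-205-5p, 6.81 and 6.88 with miR-214-3p and 6.87 and 6.86 with control. The miR-205-5p arrays lay below the other 4, which overlapped one another. GAR1 was 1.62-fold lower against control (log2 fold change -0.70, SE 0.15, adjusted p = 0.0326, lower in 2 of 2 arrays) and changed by -0.68 against miR-214-3p (adjusted p = 0.0245), so it passed the test and not the 2-fold limit. Both passes were lost without any one of the 4 precursor arrays, with values from -0.73 to -0.66 against control and from -0.71 to -0.64 in the direct comparison, and both without the filter on dim probes. The pass against control was also lost with a replicate block, at -0.70. With the arrays scaled to their medians GAR1 was called against control, at -1.09.

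The other H/ACA proteins did not pass. DKC1, the pseudouridine synthase, read 6.18 and 6.25 with miR-205-5p, 6.29 and 6.38 with miR-214-3p and 6.05 and 6.32 with control. Both precursor groups overlapped the control. The log2 fold change was 0.032 for miR-205-5p (adjusted p = 0.907), but -0.39, -0.14 and -0.36 with normexp, quantile and median scaling, and 0.15 for miR-214-3p (adjusted p = 0.640), but -0.10 and -0.014 with normexp and median scaling. A second DKC1 probe for another transcript was not well above background on any array and was not tested. NHP2, a relative of SNU13, read 7.75 and 7.92, 7.37 and 7.38, and 7.67 and 7.38 in the order miR-205-5p, miR-214-3p and control. NOP10, the smallest of these proteins, read 8.83 and 8.78, 8.31 and 8.46, and 8.39 and 8.32. In both genes the miR-205-5p arrays were the highest. The log2 fold change against control was 0.31 for NHP2 (adjusted p = 0.256, but -0.077 with median scaling and 0.17 to 0.46 without single arrays). For NOP10 it was 0.45 (adjusted p = 0.0960), and 0.063 at the lowest over the alternatives. The lowest values over the alternatives in the direct comparison were 0.19 for NHP2 and 0.15 for NOP10. In the direct comparison NHP2 gave 0.46 (adjusted p = 0.103) and NOP10 0.42 (adjusted p = 0.0895), and both passed without either control array.

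RUVBL1 and RUVBL2, the paired ATPases of snoRNP assembly, both fell with miR-205-5p. RUVBL1 read -0.63 and -0.61 with miR-205-5p, 1.39 and 1.13 with miR-214-3p and 1.05 and 1.20 with control. The miR-205-5p arrays lay well below the other 4, which overlapped. RUVBL1 was 3.34-fold lower against control (log2 fold change -1.74, SE 0.17, adjusted p = 0.00809, lower in 2 of 2 arrays) and changed by -1.88 against miR-214-3p (adjusted p = 0.00400). This was the gene's only probe, well above background on all 6 arrays but dim with miR-205-5p. Its processed signal was 26.9 and 23.1 there and 104 and 133 with control. With normexp, which adds 50 to each signal, the log2 fold changes were -0.94 and -0.92 and fell short of 2-fold. The call against control was lost without miR-205-5p replicate 2 (-1.75).

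RUVBL2 read 4.50 and 4.44 with miR-205-5p, 5.70 and 5.80 with miR-214-3p and 5.31 and 5.48 with control. The 3 groups did not overlap, with miR-205-5p lowest and miR-214-3p highest. RUVBL2 was 1.89-fold lower against control (log2 fold change -0.92, SE 0.16, adjusted p = 0.0194, lower in 2 of 2 arrays), short of 2-fold, and was called lower against miR-214-3p (log2 fold change -1.28, SE 0.16, adjusted p = 0.00592). The log2 fold change with miR-214-3p against control was 0.36 (adjusted p = 0.259). The pass against control was lost without any one of the 4 precursor arrays, with values from -0.95 to -0.89, and without the filter on dim probes, and RUVBL2 was called without scrambled control replicate 1 (-1.01), with normexp (-1.13) and with median scaling (-1.31). The direct call was lost without miR-214-3p replicate 1 (-1.33) or 2 (-1.23).

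**Figure D3:**
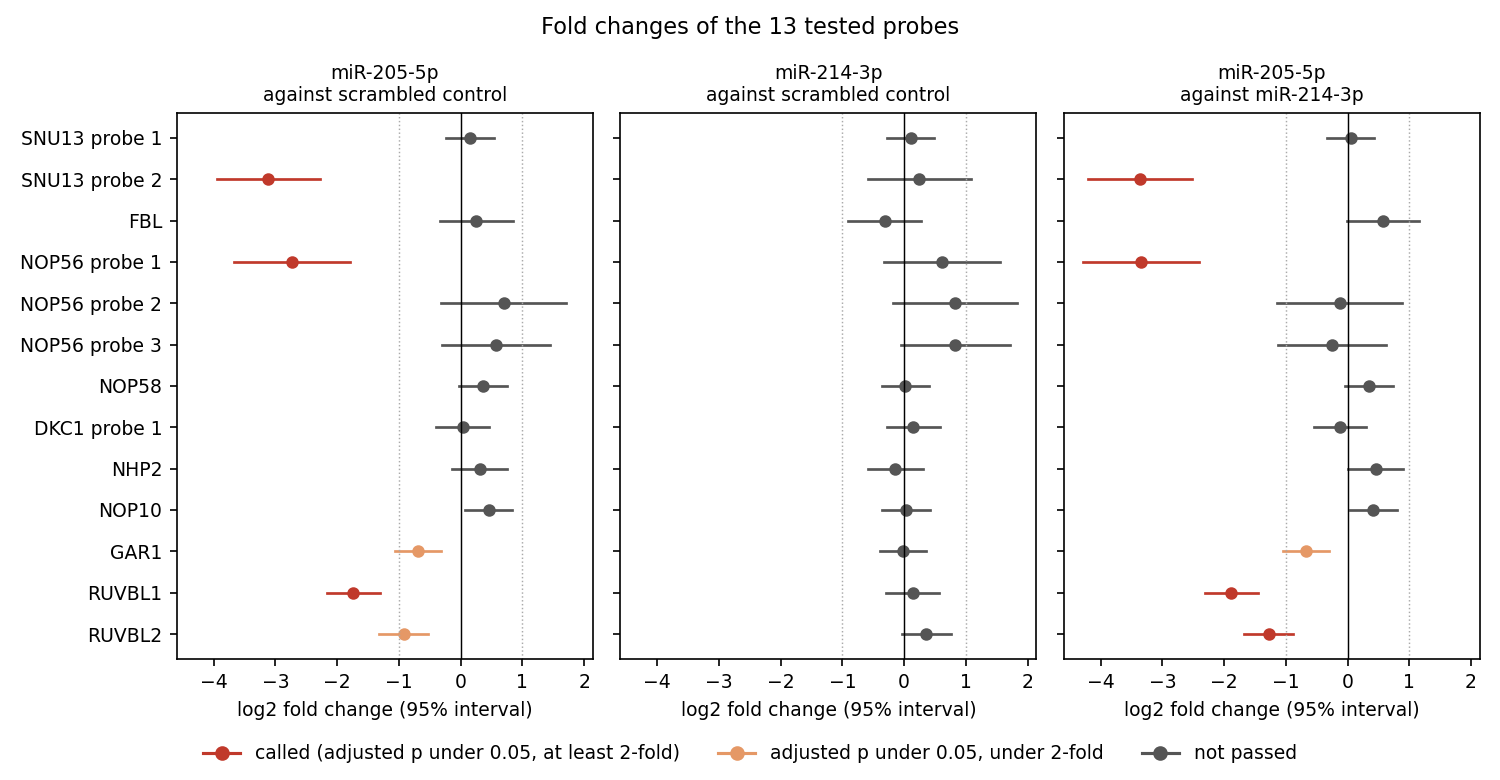
Log2 fold change with its 95% interval for the 13 tested probes in the 3 comparisons, in red where called, in orange where the adjusted p was under 0.05 and the change under 2-fold, and in grey where not passed. In both comparisons of miR-205-5p the coloured probes lie left of 0, and in miR-214-3p against control all 13 intervals reach across 0.

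Promoters were looked at because RUVBL1, RUVBL2, GAR1 and the first NOP56 probe fell in the same arrays. The other NOP56 probes gave 0.70 and 0.58 with miR-205-5p against control and were not called. The RefSeq promoter table (build GRCh38.p14, 300 bases around each start) held 11 entries for 8 of the 10 genes. The CCAAT box, read as CCAAT or its reverse complement ATTGG, stood in 9 of the 11 entries and in 34.6% of all 35116 promoters of the table. It stood in entries of 7 of the 8 genes, among them FBL, NHP2 and NOP10, which did not pass. The E-box CACGTG stood in 3 of the 11 entries (FBL, NOP10 and 1 of GAR1) and in 7.26% of all promoters. The NOP56 promoter (chr20:2652382-2652681, plus strand) and the 2 RUVBL1 promoters (chr3:128123763-128124062 and chr3:128153865-128154164, minus strand) are shown for the genes called lower against control, with the box in capitals. GAR1, RUVBL1 and RUVBL2 had 2 entries each, and the shares are over all promoters, not those of the genes tested. Whether the shares differ was not tested. A match describes the letters and shows no binding.
NOP56 promoter: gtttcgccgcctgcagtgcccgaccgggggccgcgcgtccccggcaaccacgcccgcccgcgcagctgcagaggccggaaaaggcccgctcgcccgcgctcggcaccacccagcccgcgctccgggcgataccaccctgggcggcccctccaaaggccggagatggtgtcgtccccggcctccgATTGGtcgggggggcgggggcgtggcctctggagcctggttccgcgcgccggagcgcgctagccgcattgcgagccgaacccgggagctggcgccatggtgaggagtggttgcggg
RUVBL1 promoter entry 1: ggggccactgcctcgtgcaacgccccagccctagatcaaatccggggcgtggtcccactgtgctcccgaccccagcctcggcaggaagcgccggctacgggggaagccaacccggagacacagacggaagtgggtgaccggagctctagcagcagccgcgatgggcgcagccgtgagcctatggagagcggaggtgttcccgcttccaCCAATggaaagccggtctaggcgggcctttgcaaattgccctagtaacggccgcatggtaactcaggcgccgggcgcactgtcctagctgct
RUVBL1 promoter entry 2: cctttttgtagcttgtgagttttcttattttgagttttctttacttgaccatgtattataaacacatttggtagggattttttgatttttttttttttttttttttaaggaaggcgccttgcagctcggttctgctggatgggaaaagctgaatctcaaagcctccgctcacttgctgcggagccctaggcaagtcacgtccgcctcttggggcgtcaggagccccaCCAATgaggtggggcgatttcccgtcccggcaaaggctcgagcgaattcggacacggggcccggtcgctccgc

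Genes that work with these proteins were read from 5 lists of 85 genes, 79 of them tested. With miR-205-5p against control 9 were called lower and 0 higher, and 10 fell and 5 rose at any fold. Over all genes 7.98% were called lower and 4.78% higher, and 11.3% fell and 9.81% rose at any fold. The 9 are 11.4% of the list genes and include NUFIP1 and UTP14A, which were well above background only in the miR-214-3p and control arrays and passed the filter through those alone. Of the 72 list genes well above background on all 6 arrays, 6 (8.33%) were called lower, against 6.85% of all such genes. Nothing particular to the lists was read from these counts. Without miR-205-5p replicate 1 the count was 2, without replicate 2 it was 0, without either miR-214-3p replicate it was 2, and without scrambled control replicate 1 it was 14 lower and 1 higher. Without scrambled control replicate 2, 1 was called higher. At an unadjusted p under 0.05, limma gave 19 list genes lower and 11 higher and the methods' t-test 9 and 7.

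With miR-214-3p against control limma called 0 of the list genes in either direction, with 7 lower and 6 higher at an unadjusted p under 0.05 by limma and 7 and 6 by the methods' t-test. Over all genes the counts at that p were 1609 and 1294 by limma and 1137 and 957 by the t-test. Without scrambled control replicate 2 limma called 1 list gene lower and 5 higher. In the direct comparison 12 were called lower and 3 higher, and 15 fell and 12 rose at any fold. Over all genes 11.3% were called lower and 9.18% higher, and 16% fell and 17.9% rose at any fold. The 12 and 3 are 15.2% and 3.80% of the list genes, with NUFIP1 and UTP14A again among the 12. Of the 72 list genes well above background on all 6 arrays, 9 (12.5%) were called lower and 3 (4.17%) higher, against 9.60% and 9.18% of all such genes. At an unadjusted p under 0.05, limma gave 19 list genes lower and 21 higher and the methods' t-test 21 and 19. The list calls fell in both directions without miR-205-5p replicate 1 and without either miR-214-3p replicate, as did the calls over all genes. No list call was left without miR-214-3p replicate 2.

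Among 16 tested genes of snoRNP assembly and biogenesis, 3 were called lower with miR-205-5p against control, 1 of them (NUFIP1) dim on both miR-205-5p arrays. For each list the share of all genes called lower is 7.98% in that comparison and 11.3% in the direct one. HSP90AB1, the cytosolic chaperone that works with the RUVBL proteins, changed by -2.38 (adjusted p = 0.0137), and its other probe by -0.35 (adjusted p = 0.468), which did not pass. WRAP53, a Cajal body protein that binds H/ACA RNAs, changed by -1.01 (adjusted p = 0.0187). NUFIP1, a bridge between SNU13 and the assembly factors, was the dim one. Its drop was 1.61-fold when measured down to the level of signal well above background. That is short of the 2-fold limit, so its call rests on signal not well above background. The measure sets the brighter group's mean against the higher of each dim array's own signal and its lowest signal well above background. It leaves out the spread between replicates, so it is not a lower limit on the drop. TCOF1, which acts in ribosomal RNA synthesis, was called higher by another probe (1.07, adjusted p = 0.0223), while the probe it was counted by gave 0.51 (adjusted p = 0.112) and its remaining probe -0.084 (adjusted p = 0.751). The list's median was 0.0061 against 0.077 for all genes. Directly against miR-214-3p, HSP90AB1 (-2.88) and NUFIP1 (1.45-fold by that measure) were called lower and ZNHIT3 (1.02) higher. The list median was 0.20 against 0.12. The other HSP90AB1 probe gave -0.33 there (adjusted p = 0.455) and did not pass. The list's median with miR-214-3p against control was -0.24, against -0.012.

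Among 30 genes of the U3 snoRNP and the small subunit processome, which SNU13 and the box C/D proteins join, 3 were called lower with miR-205-5p against control. NAT10, the cytidine acetyltransferase of ribosomal RNA, changed by -1.37 (adjusted p = 0.0158). NOL6 also changed by -1.37 (adjusted p = 0.0427), with its other probe at -0.0098. UTP14A was likewise dim on both miR-205-5p arrays, and its drop was at least 3.80-fold. The list median was 0.043. Against miR-214-3p, UTP14A (at least 5.06-fold), NAT10 (-1.94), NOL6 (-1.51) and WDR46 (-1.16) were called lower and TBL3 higher, with a median of 0.050. The other NOL6 probe gave 0.43 (adjusted p = 0.231) and the other TBL3 probe 0.78 (adjusted p = 0.125), and neither passed. BMS1, a GTPase of the processome, was called lower in that comparison by 2 of its 4 other probes (-1.49 and -1.06) and not by the probe it was counted by (-0.083). The median with miR-214-3p against control was -0.028.

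The U4/U6.U5 tri-snRNP, the spliceosome particle that holds SNU13, had 15 tested genes. PRPF8 (-1.32, adjusted p = 0.0108) and PRPF6 (-1.11, adjusted p = 0.0129), scaffold proteins of the U5 part, were called lower with miR-205-5p against control. CD2BP2, a U5 protein, was called lower by another probe (-2.31, adjusted p = 0.0210), while the probe it was counted by gave -0.44 (adjusted p = 0.130). The list's median was -0.54 against 0.077 for all genes, with 11 of 15 genes below 0. In the other lists 8 of 16, 13 of 30, 4 of 9 and 4 of 9 were below 0, and 40 of 79 over all 5 lists. Whether this list shifted was not tested. Against miR-214-3p that other CD2BP2 probe was also called lower (-2.23), and PRPF4 (-2.20), PRPF8 (-1.79) and PRPF6 (-1.42) were called lower and PPIH (1.35) higher, with a median of -0.60. With miR-214-3p against control the median was 0.046. The plot of the lists shows these genes beside the others.

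Of 9 other proteins of the L7Ae and L30e family, to which SNU13 belongs, SECISBP2 was called lower, by both of its probes (-1.37 and -1.96 against control, adjusted p = 0.0199 and 0.0298). It binds the element that directs selenocysteine insertion, and its first probe was well above background on 1 of the 2 miR-205-5p arrays. The list median was 0.057 against control and -0.23 against miR-214-3p. Of 9 tested stand-alone pseudouridine synthases, which need no guide RNA, 0 were called against control (median 0.25), and PUS1 (-1.22) and RPUSD4 (-1.84) were called lower against miR-214-3p (median 0.083). With miR-214-3p against control the medians of these lists were both 0.16.

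**Figure D4:**
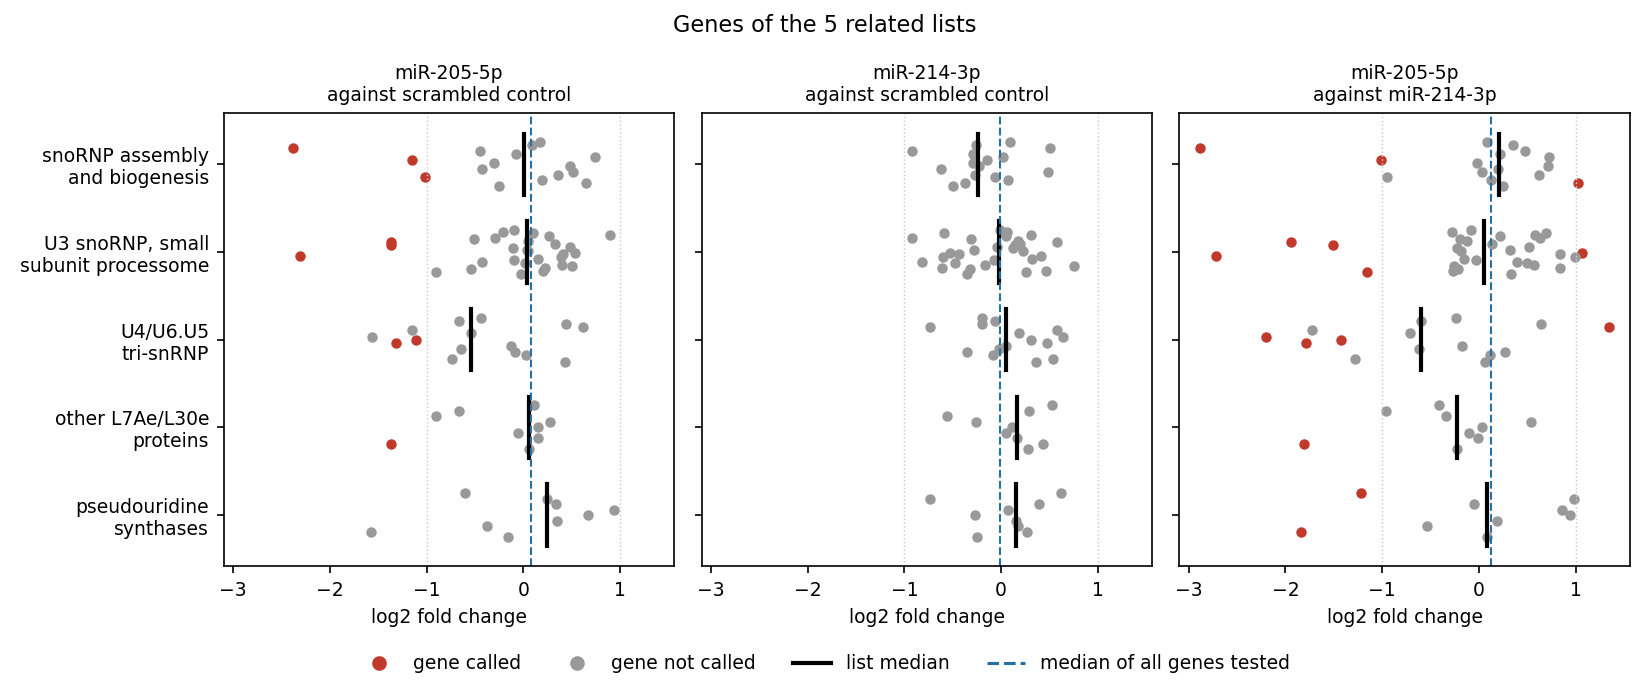
Log2 fold change (horizontal axis) of each tested gene of the 5 lists in the 3 comparisons, red where called, with the list median as a black bar and the median of all 11974 genes as a dashed line. The tri-snRNP medians lie at -0.54 and -0.60 in the comparisons of miR-205-5p, left of the dashed line at 0.077 and 0.12.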

How the data were processed

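The 6 scanner files hold the spot intensity of 1 array each, as the authors deposited them from Agilent Feature Extraction 11.0. Its processed signal is background-subtracted. A deposited table by the authors holds log2 values of the same arrays, whose sorted columns are the same in all 6 and whose median is 3.485. Its normalization is not given in the sources used here, and it served only as an alternative.

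Control spots and outliers were dropped, and the spots of 1 probe averaged. The log2 of the processed signal minus the array's 75th percentile was fitted. A probe was kept when well above background on both arrays of a group (18464 of 50599 probes). SystematicNames were matched to RefSeq symbols (GRCh38.p14, names only), which gave 30275 probes a symbol. limma 3.58.1 in R 4.3.3 fitted all 6 arrays, with Benjamini-Hochberg adjustment over kept probes, after being tested on simulated data. A gene called had an adjusted p under 0.05 and at least a 2-fold change. Genes were named by a rule: every member probe, list genes called (at most 4 by value for each list and comparison), list genes called by another probe, and the 3 genes nearest to each SNU13 probe. Members and lists were chosen with earlier results of these data known. Alternatives covered background correction, scaling, filter, block, test, gene level and leaving out each array. The fit of probe differences and the counts that need every probe, or any probe, and those over genes well above background on all arrays, were chosen after seeing the data. Plots were drawn with matplotlib 3.10.9.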

Additional observations from a re-analysis of the deposited data

How the results depend on the processing

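Dim probes and 2 arrays for each group limit these results. Over the single-probe and probe-difference values called here, 106 values under an alternative stayed called in the same direction and 34 did not, and 5 values became called. The cause of the changes was not tested. Where leaving out an array left a group with 1 sample, the spread came from the other groups.

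With miR-205-5p against control, 956 of all genes were called lower and 572 higher. These became 616 and 134 with normexp, 1876 and 212 with median scaling and 405 and 212 with only the 4 arrays compared. With no filter on dim probes they were 206 and 114 of 21743 genes, and 0 and 0 by the t-test after adjustment. Of the members, 2 were called lower. The count was 4 with median scaling and 4 with no fold limit, 1 with no filter on dim probes and 0 by the methods' t-test after Benjamini-Hochberg. It was 1 when every probe of a gene had to be called, and 3 (NOP56, RUVBL1 and SNU13) when any probe sufficed. Both of these rules were chosen after seeing the data. Normexp also gave 2, NOP56 and RUVBL2, and the mean of a gene's probes gave RUVBL1 and SNU13. Leaving out single arrays gave 0 to 3. The 9 list genes called lower became 5 with normexp, 15 with median scaling, 0 with no filter, 2 with only the 4 arrays compared and 0 by the t-test after adjustment, and 0 to 14 without single arrays. The 0 called higher became 5 with no fold limit and 0 to 1 without single arrays. With miR-214-3p against control, leaving out single arrays gave 0 to 1 members higher, 0 to 1 list genes lower and 0 to 5 higher. In the direct comparison, leaving out single arrays gave 1 to 3 members lower, 0 to 14 list genes lower and 0 to 3 higher. There the 12 list genes lower became 7 with normexp and 7 with no filter. The 3 higher became 0 with normexp, 1 with median scaling, 5 with the authors' table, 1 with no filter and 12 with no fold limit. Over all genes the 1352 lower and 1099 higher became 646 and 417 with normexp and 1801 and 638 with median scaling. They became 1384 and 999 with the authors' table, 726 and 522 of 21743 with no filter and 1913 and 2142 with no fold limit.

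Replicate numbers were shared between groups as numbers only: the correlations of the replicate differences were 0.00819, -0.0514 and 0.109. With a replicate block, 2, 0 and 3 members were called lower in the 3 comparisons, and over all genes 843 lower and 498 higher, 0 and 0, and 1290 and 1088. With that block GAR1 no longer passed for miR-205-5p against control, at -0.70.

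Some log2 fold changes turned sign, none of them called under either setting. For miR-205-5p against control, normexp gave SNU13 probe 1 -0.14, NOP58 -0.074 and DKC1 -0.39. Quantile scaling gave SNU13 probe 1 -0.078, FBL -0.021 and DKC1 -0.14. Median scaling gave SNU13 probe 1 -0.23, FBL -0.13, NOP58 -0.024, DKC1 -0.36 and NHP2 -0.077. Scaling to the 75th percentile of only the probes above background everywhere gave DKC1 -0.0067. The authors' table gave SNU13 probe 1 -0.077, FBL -0.013 and DKC1 -0.14. DKC1 gave -0.0037 without miR-205-5p replicate 2 and -0.10 without scrambled control replicate 1, in a range from -0.10 to 0.17. For miR-214-3p against control, normexp gave SNU13 probe 1 -0.053, NOP58 -0.21, DKC1 -0.10, NOP10 -0.18 and RUVBL1 -0.019. Median scaling gave -0.060, -0.14, -0.014, -0.13 and -0.024 for the same 5. GAR1 gave 0.0044 with quantile scaling and 0.0060 with the authors' table. Leaving out single arrays gave GAR1 -0.059 to 0.019, NOP10 -0.040 to 0.11, SNU13 probe 2 -0.24 to 0.73, NOP58 -0.022 to 0.065, NHP2 -0.29 to 0.0014, and the SNU13 probe difference -0.26 to 0.55. For miR-205-5p against miR-214-3p, SNU13 probe 1 gave -0.087, -0.20, -0.17 and -0.20 with normexp, quantile scaling, median scaling and the authors' table, and NOP56 probe 2 gave -0.46 to 0.20 without single arrays.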
